A study of Mus musculus with 30 samples.

Results

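The 58 genes described here lie on the distal end of mouse chromosome 11, from Smurf2 to Tbcd, and were chosen because single mammary tumors held more of their RNA than the other tumors did. The choice was therefore made on measured values, and the levels by which the genes were selected are given as a description. Where these levels enter a fit or a marking of single tumors, the result restates the choice and supports nothing. The 58 genes are 58 of the 21841 rows of the counts table, and all 58 were among the 13663 genes that passed a filter on low counts. The tumors came from MMTV-PyMT mice (FVB/N-Tg(MMTV-PyVT)634Mul/J), in which the mouse mammary tumor virus promoter drives the polyoma middle T oncogene in the mammary epithelium and tumors arise spontaneously. Bulk RNA sequencing of 30 tumors covered 6 groups of 5 mice, all carrying the transgene, treated for 72 h by intraperitoneal injection per the labels: vehicle, 5-fluorouracil (5-FU, 40 mg/kg every 4 days), gemcitabine (64 mg/kg every 7 days), KCL-HO-1i (an inhibitor of heme oxygenase-1, 25 µmol/kg daily) and KCL-HO-1i given with 5-FU or with gemcitabine, called here the 5-FU combination (KCL-HO-1i/5-FU in the plots) and the gemcitabine combination (KCL-HO-1i/gemcitabine). Tumors are numbered by their replicate in the group. The methods of the study name a shorter treatment and a lower gemcitabine dose than the labels, and the labels give no ages. Each tumor is a separate mouse, and total counts ran from 10067577 to 13622264 per library. All 10 luminal epithelial markers tested were detected, with summed levels between 2914 and 6578 CPM (counts per 1000000 of the scaled library size) over the 30 tumors.

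This stretch of the mouse genome matches the end of the long arm of human chromosome 17, a segment that is often present in extra copies in human breast tumors. It is densely packed with genes of unrelated function that most cells use. They include the growth factor adaptor Grb2, the ubiquitin-like modifier Sumo2, the histone variant gene H3f3b, cytoplasmic actin (Actg1), the secretory pathway enzyme P4hb and the fatty acid synthase Fasn. In bulk tissue a higher level can come from more cells that express a gene or from more RNA per cell, and these cannot be told apart here.

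Promoters of 4 of the genes are shown, each 300 bases long (250 before to 50 after the annotated start) from RefSeq on GRCm38.p6, because they stand for the parts of the pattern described below. Sumo2 lies in the first stretch of the region, H3f3b in the second and P4hb in the last, and Fasn is among the 5 genes whose level was highest in a tumor outside the 6 with the highest medians. Each sequence is written 5′ to 3′, and capitals mark matches to motifs on either strand. The GC box was searched as GGGCGG. The CCAAT box was searched by the letters of its name. The E-box was searched as CACGTG and the AP-1 element as TGACTCA. The TATA box was searched as TATAAA. They lie on the minus strand at chr11:115536181-115536480 (Sumo2), chr11:116024455-116024754 (H3f3b), chr11:120573204-120573503 (P4hb) and chr11:120824498-120824797 (Fasn).
Sumo2: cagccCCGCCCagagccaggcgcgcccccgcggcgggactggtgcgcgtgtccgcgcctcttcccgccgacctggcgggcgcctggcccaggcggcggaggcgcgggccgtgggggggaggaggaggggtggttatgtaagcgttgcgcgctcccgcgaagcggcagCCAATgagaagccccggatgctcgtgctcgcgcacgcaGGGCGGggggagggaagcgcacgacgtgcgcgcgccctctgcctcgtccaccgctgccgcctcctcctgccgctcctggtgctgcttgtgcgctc
H3f3b: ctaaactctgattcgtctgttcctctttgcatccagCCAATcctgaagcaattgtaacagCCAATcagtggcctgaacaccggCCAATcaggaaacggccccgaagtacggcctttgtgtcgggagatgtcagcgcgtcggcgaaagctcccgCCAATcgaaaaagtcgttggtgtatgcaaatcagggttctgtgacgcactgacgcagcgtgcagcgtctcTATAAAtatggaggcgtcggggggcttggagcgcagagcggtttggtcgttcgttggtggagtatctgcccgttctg
P4hb: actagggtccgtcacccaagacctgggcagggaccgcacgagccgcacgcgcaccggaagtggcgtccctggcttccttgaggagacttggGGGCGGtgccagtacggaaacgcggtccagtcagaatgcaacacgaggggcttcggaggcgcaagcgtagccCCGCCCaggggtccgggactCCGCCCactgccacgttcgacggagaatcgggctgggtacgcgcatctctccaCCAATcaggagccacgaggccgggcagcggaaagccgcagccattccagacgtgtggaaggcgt
Fasn: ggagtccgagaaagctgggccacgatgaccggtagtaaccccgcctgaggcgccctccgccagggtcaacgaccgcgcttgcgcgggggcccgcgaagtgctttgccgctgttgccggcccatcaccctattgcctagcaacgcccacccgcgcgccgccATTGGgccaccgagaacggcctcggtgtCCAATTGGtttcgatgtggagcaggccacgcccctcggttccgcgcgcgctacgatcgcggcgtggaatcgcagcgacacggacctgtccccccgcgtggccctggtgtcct
Of the 58 genes, 47 had such an entry, with 63 promoters between them. A GC box was found in 60.3% of these 63 promoters, against 35.7% of all 32851 promoters and 61.1% of the 13691 promoters of genes that passed the filter. A CCAAT box was found in 39.7% of them (37.4% of all and 37.1% of those of filtered genes), a TATA box in 9.52% (13.6% and 7.44%), an E-box in 15.9% (7.15% and 9.61%) and an AP-1 element in 6.35% (5.20% and 4.03%). Such matches describe letters only. In the 4 promoters shown, Sumo2 and P4hb held GC and CCAAT boxes, H3f3b held CCAAT boxes and a TATA box, and Fasn held CCAAT boxes of which a pair overlapped on opposite strands.

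The level of a gene in a tumor was expressed as its deviation, the log2 CPM minus the median of the other 29 tumors, and a gene was called raised above a deviation of 0.5, which is 1.41-fold. In 5-FU combination tumor 5 the median deviation of the 58 genes was 1.13, or 2.19-fold, and 56 of the 58 were raised, where 9.79% of all 13663 genes were. In gemcitabine tumor 4 the median was 0.81 and 51 genes were raised (8.53% of all genes). In 5-FU combination tumor 4 it was 0.79 and 32 genes were raised (12.4% of all genes). In vehicle tumor 4 it was 0.50 and 29 genes were raised (7.9% of all genes). Smaller medians were found in vehicle tumor 2 (0.22, with 13 genes raised against 4.78% of all genes) and in 5-FU combination tumor 1 (0.20, with 15 genes raised against 9.38% of all genes). The next highest median was 0.13 in 5-FU tumor 3, and the lowest was -0.18 in KCL-HO-1i tumor 4. In vehicle tumor 3 the median was 0.07 and 11 genes were raised (14.9% of all genes). The 6 tumors with the highest medians thus came from the vehicle, gemcitabine and 5-FU combination groups, each of which also held tumors with medians near 0. Since these are the values the genes were chosen by, the shares of all genes are printed beside the counts and nothing is read from the difference.

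**Figure D1:**
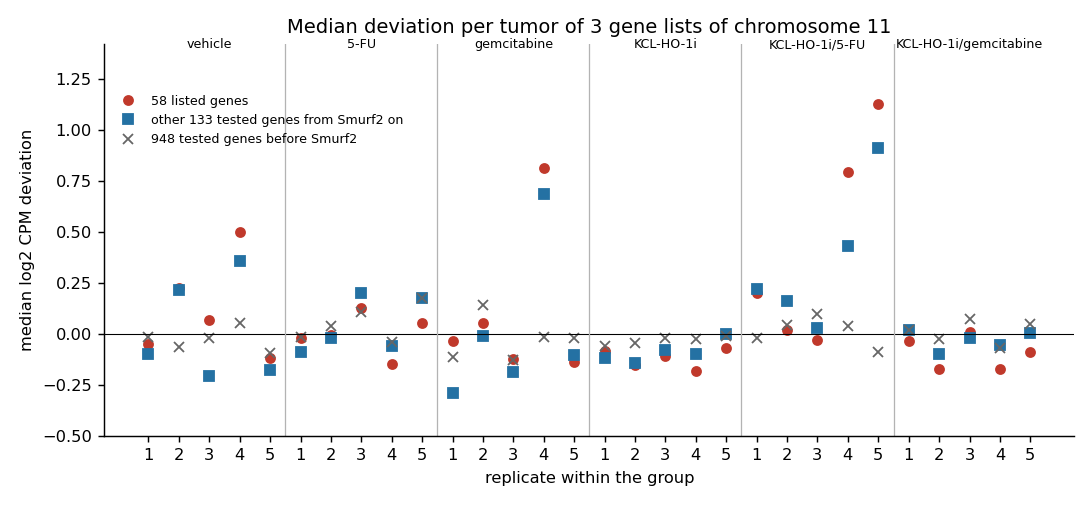
Median log2 CPM deviation (y axis) in each of the 30 tumors (x axis, by group and replicate) for the 58 listed genes (circles), the 133 other tested genes from Smurf2 to the chromosome end (squares) and the 948 tested genes before Smurf2 (crosses). 5-FU combination tumor 5 reaches 1.13 and gemcitabine tumor 4 reaches 0.81 for the listed genes, while the genes before Smurf2 stay at -0.09 and -0.01 in the same tumors.

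The 133 other tested genes of the same region, which are not in the list, had medians of 0.91 in 5-FU combination tumor 5, 0.68 in gemcitabine tumor 4, 0.43 in 5-FU combination tumor 4, 0.35 in vehicle tumor 4, 0.21 in vehicle tumor 2 and 0.22 in 5-FU combination tumor 1. The 948 tested genes on the chromosome before Smurf2 had medians between -0.09 and 0.05 in these 6 tumors. The 5 other genes of the region with the highest mean levels were Prkar1a, a regulatory subunit of protein kinase A (529 CPM), the ribosomal protein gene Rpl38 (377 CPM), the transporter Slc38a10 (280 CPM), the scaffold protein Slc9a3r1 (271 CPM) and the mitochondrial ATP synthase subunit Atp5h (265 CPM). Their deviations in 5-FU combination tumor 5 were 1.24, 0.92, 1.11, 1.33 and 0.94. Not every gene between the listed ones was high. The splicing factor gene Srsf2, at a median of 224 CPM, had deviations of 0.16, 0.11 and 0.11 in 5-FU combination tumor 5, gemcitabine tumor 4 and 5-FU combination tumor 4, and was singled out after its values were seen.

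**Figure D2:**
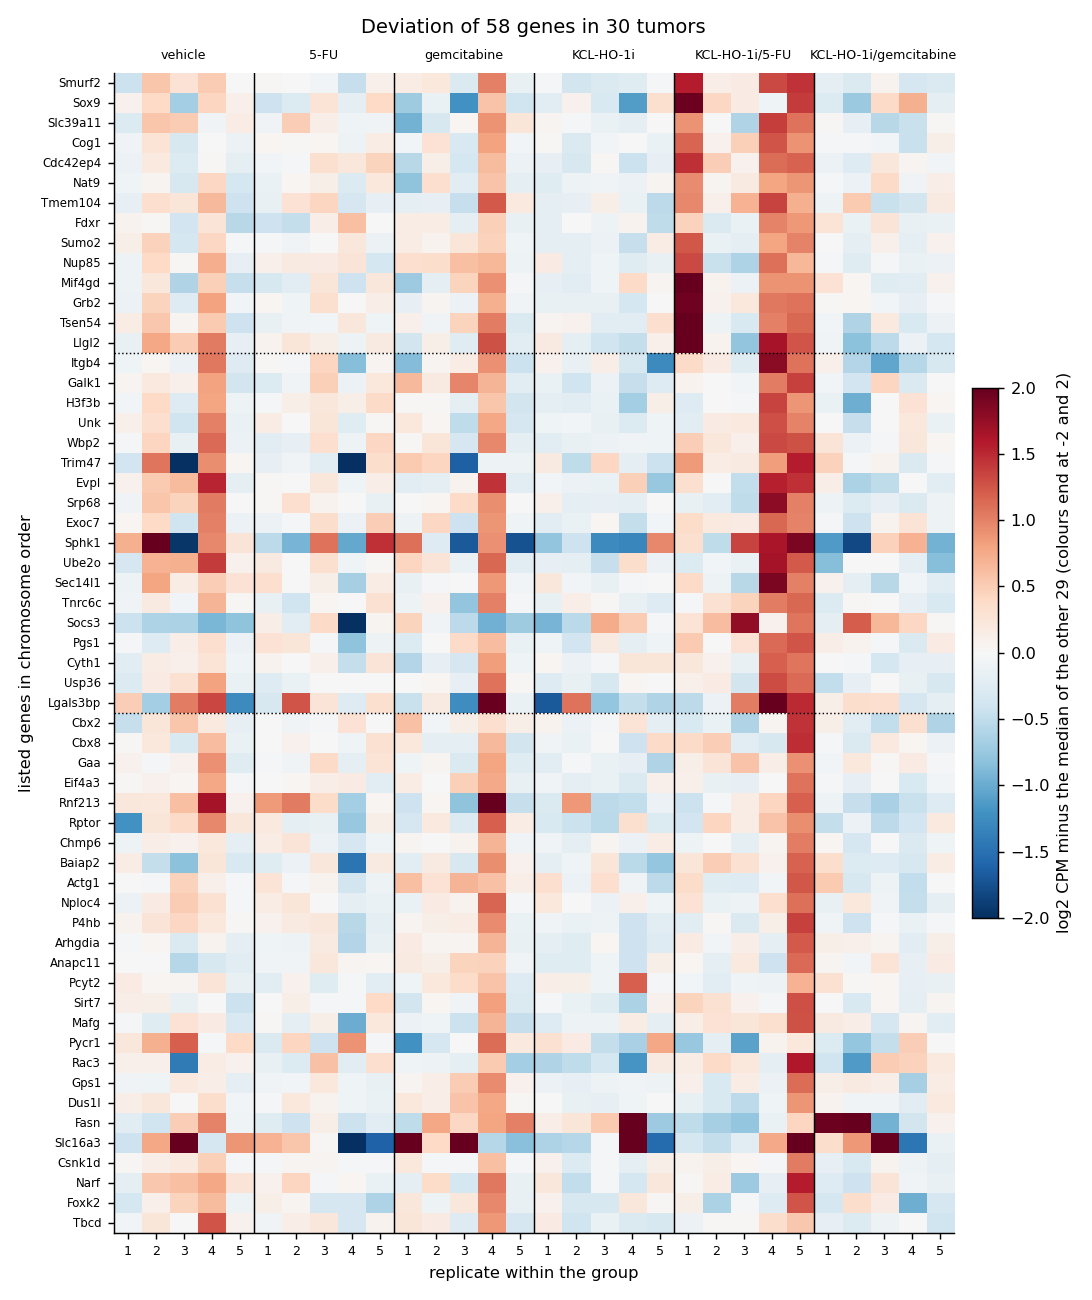
Log2 CPM deviation (color, red high and blue low) of the 58 listed genes (rows, in chromosome order) in the 30 tumors (columns, by group and replicate); dotted lines mark the starts of Itgb4 and Cbx2. In 5-FU combination tumor 5 the column is red from top to bottom, in tumor 4 of that group it fades after Lgals3bp, and in tumor 1 it fades after Llgl2.

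The tumors differed in which genes were raised, and the differences followed gene order. A running median of the deviation over 15 neighboring tested genes was taken along the 1139 tested genes of chromosome 11, and runs of genes at which it exceeded 0.5 were listed. 5-FU combination tumor 5 had an unbroken run of 139 genes from Rab37 to Wdr45b, the last position the window could reach with 15 genes, and shorter runs of 29 genes (Strada to Amz2) and 17 genes (1700012B07Rik to Rpl38) before it. Gemcitabine tumor 4 had runs of 46 genes (Strada to Fam104a), 70 genes (Cd300lf to Cyth1) and 67 genes (Timp2 to Wdr45b), so its raised genes also continued to the end of the chromosome. In both tumors the running median rose above 0.5 at Strada, upstream of Smurf2, the first listed gene.

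5-FU combination tumor 4 had a run of 94 genes from Slc39a11 to Rbfox3, which held 30 of the 58 genes. The median deviation of those 30 was 1.22, and that of the other 28 was -0.01. The drop lay between Lgals3bp, the galectin-3 binding protein, at 2.37, followed by Cant1 at 1.11, and the Polycomb genes Cbx2 at 0.06 and Cbx8 at -0.32. The gap between Rbfox3 and Cbx2 on the annotation is 111 kb. The same tumor had an earlier run of 38 genes from Gm11639 to Rgs9, which included Smurf2 (1.31), and between the runs Sox9 was at -0.08 and Prkar1a at -0.01. Over the 10 genes from Gna13 to Sox9 with a median of at least 10 CPM its median deviation was 0.02, against 1.27 over the 8 such genes from Smurf2 to Prkca and 1.04 over the 23 from Slc39a11 to Nup85. These stretches were bounded after the values were seen.

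5-FU combination tumor 1 had a run of 77 genes from Cep95 to Galk1, with 16 listed genes at a median of 1.28, while the other 42 had a median of 0.11. The level within this run was not even. Over the 23 genes from Slc39a11 to Nup85 the median deviation was 1.23, and over the 11 genes from Gga3 to Sap30bp it was 2.02. It then fell between adjacent genes. Sap30bp was at 2.09, Itgb4, whose start lies 9.19 kb past the end of Sap30bp, was at 0.38, Galk1 was at 0.06 and H3f3b was at -0.27. This tumor had a second long run elsewhere on the chromosome, of 67 genes from Cacnb1 to Tubg1 with no listed gene, in which the receptor gene Erbb2 was at 1.53 and the transcription factor gene Stat3 at 1.19. The keratin cluster lies in that run, and the summed basal epithelial markers, which include keratins, were highest of the 30 tumors in this tumor (1389 CPM, with a median of 270 CPM). By single genes it was not the highest, with 4 of the 7 basal markers raised and a median deviation of 0.56. That median was 1.46 in 5-FU combination tumor 3, 1.05 in KCL-HO-1i tumor 4 and 0.85 in 5-FU tumor 1. It was 0.73 in gemcitabine combination tumor 3, 0.67 in gemcitabine tumor 3 and 0.63 in 5-FU tumor 4. A link between the run and the basal markers was not tested.

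The runs of vehicle tumor 4 included 30 genes from Mif4gd to Prpsap1 and 7 genes from Sectm1a to Wdr45b. Its highest running median was 1.01, at Itgb4. Vehicle tumor 2 had no run of 5 genes or more, and its running median passed 0.5 at 8 genes in all, the longest run being the 4 genes from Rnf157 to Sphk1. When the 58 genes were divided at the points where the runs of single tumors ended, the 14 genes before Itgb4 had median deviations of 1.03 in 5-FU combination tumor 5, 0.76 in gemcitabine tumor 4, 1.08 in 5-FU combination tumor 4, 0.45 in vehicle tumor 4, 0.40 in vehicle tumor 2 and 1.39 in 5-FU combination tumor 1. For the 18 genes from Itgb4 to Lgals3bp the medians in the same order were 1.15, 0.90, 1.31, 0.95, 0.37 and 0.26. For the 26 genes from Cbx2 on they were 1.16, 0.78, -0.01, 0.25, 0.13 and 0.06. The cuts were placed after the values were seen, so differences between the stretches restate the cuts. In vehicle tumor 4, 6 of the 14 genes of the first stretch and 14 of the 18 of the second were raised (7.9% of all genes). In 5-FU combination tumor 1, 13 of the 14 and 2 of the 18 were raised (9.38% of all genes).

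**Figure D3:**
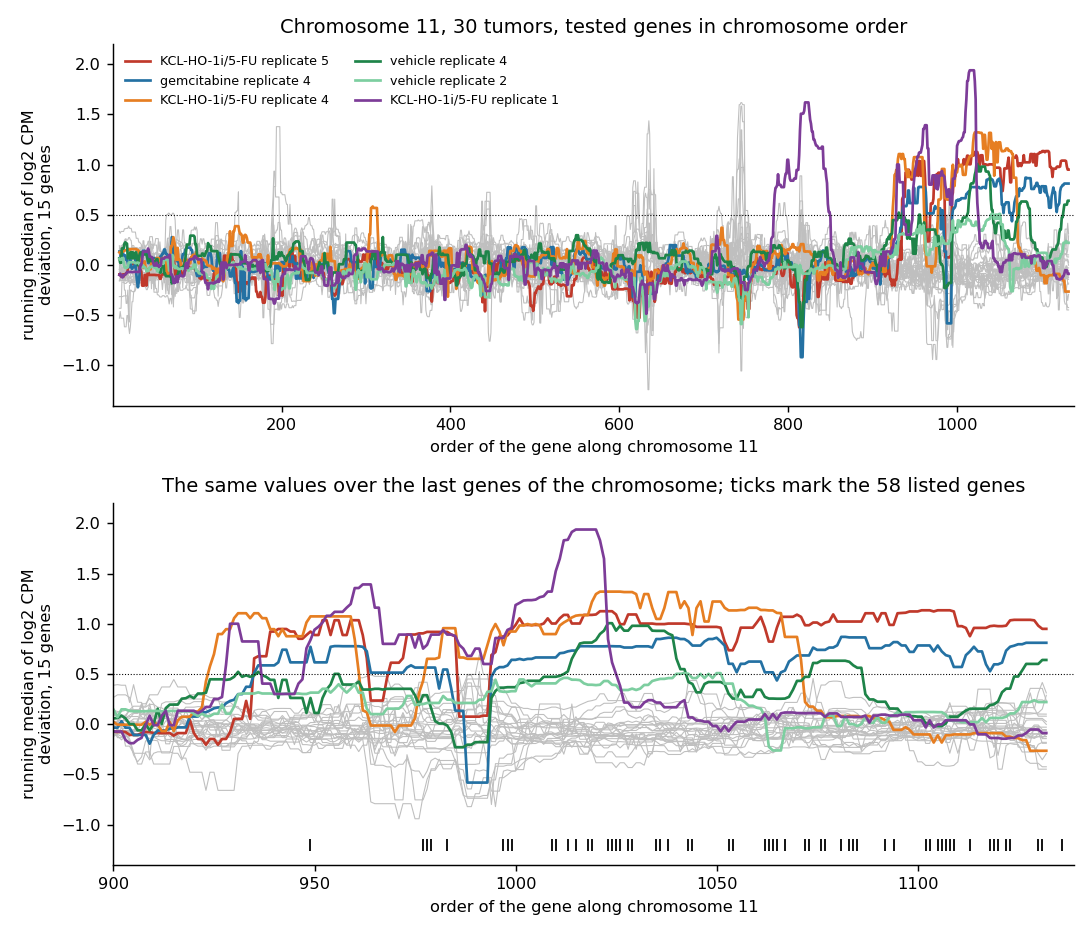
Running median of the log2 CPM deviation over 15 neighboring tested genes (y axis) against gene order along chromosome 11 (x axis) for the 30 tumors, 6 of them colored, over the whole chromosome (top) and its last genes (bottom); the dotted line is 0.5. 5-FU combination tumor 5 stays near 1 to the end, 5-FU combination tumor 4 falls after Rbfox3, and 5-FU combination tumor 1 peaks at 1.94 around Grb2 and has a separate run that peaks at 1.62.

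Across the genome, 13196 windows of 15 genes were scored in each tumor. In gemcitabine tumor 4, 171 of the 224 windows above 0.5 (76.34%) lay in the distal region, and in 5-FU combination tumor 5 it was 171 of 231 (74.03%). The share was 70.3% in vehicle tumor 4 (52 of 74), 60.1% in 5-FU combination tumor 4 (107 of 178), 53.3% in vehicle tumor 2 (8 of 15) and 44.2% in 5-FU combination tumor 1 (76 of 172). 5-FU combination tumor 3 and gemcitabine combination tumor 2 had 1 such window each in the region and the remaining 22 tumors had 0. Windows overlap, so these are descriptions. The region was chosen for high values, so its shares restate the choice. In all 6 tumors the highest window outside chromosome 11 lay on chromosome 18, centered on a Pcdhb or Pcdhgb gene. It also lay on chromosome 18 in 5-FU tumors 3, 4 and 5, gemcitabine tumor 2 and KCL-HO-1i tumor 1. The same was found in 5-FU combination tumors 2 and 3 and gemcitabine combination tumor 4, so this was not particular to the 6 tumors. The window was at 1.83 in gemcitabine tumor 4, 1.60 in 5-FU combination tumor 4 and 1.54 in tumor 5 of that group. In vehicle tumor 4 it was at 1.13, in 5-FU combination tumor 1 at 0.66 and in vehicle tumor 2 at 0.60. 5-FU combination tumor 3 and gemcitabine tumor 3 had 457 and 353 windows above 0.5 over the genome.

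By level per length, over the summed exons of each gene, Actg1 was the highest of the 58 genes (median 1168 CPM per kb, over a median of 3104 CPM), followed by H3f3b (456 CPM per kb), P4hb (364 CPM per kb) and Arhgdia (223 CPM per kb). Slc16a3 was the lowest (1.09 CPM per kb). The ratio of a gene's highest tumor to its median ran from 1.83 for Dus1l to 19.6 for Fasn, with a median of 2.48 over the 58 genes. The highest tumor was 5-FU combination tumor 5 for 21 genes, 5-FU combination tumor 4 for 16, 5-FU combination tumor 1 for 10, gemcitabine tumor 4 for 3, vehicle tumor 4 for 2 and vehicle tumor 2 for 1. The remaining 5 genes were highest elsewhere.

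The signaling genes included the adaptor Grb2, which links receptor tyrosine kinases to Ras. Its level in the vehicle tumors was 97.8, 144, 88.03, 184 and 102 CPM, in the 5-FU tumors 108, 99.2, 132, 106 and 116 CPM, and in the gemcitabine tumors 94.7, 109, 98.1, 173 and 100.3 CPM. In the KCL-HO-1i tumors it was 95.1, 95.2, 95.7, 82.6 and 106 CPM, in the 5-FU combination tumors 405, 112, 122, 221 and 225 CPM, and in the gemcitabine combination tumors 107, 109, 102, 94.3 and 103 CPM. The 5-FU combination tumors were thus split into 3 high and 2 near the level of the other groups, and vehicle tumors 2 and 4 and gemcitabine tumor 4 stood above their groups. Smurf2, a ubiquitin ligase that limits TGF-beta signaling, had the same 3 high 5-FU combination tumors (315, 262 and 288 CPM in tumors 1, 4 and 5, against 116 and 118 CPM in tumors 2 and 3). Rptor, the scaffold of the mTORC1 complex, lies in the last stretch and was highest in gemcitabine tumor 4 (109 CPM), vehicle tumor 4 (92.9 CPM) and 5-FU combination tumor 5 (90.7 CPM), with a median of 49.5 CPM. Csnk1d, a casein kinase, had deviations of 1.03 in 5-FU combination tumor 5 and 0.60 in gemcitabine tumor 4. Wbp2, a WW-domain binding coactivator, was at 1.28 and 0.96 in these tumors and at 1.32 in 5-FU combination tumor 4. Lgals3bp, a secreted glycoprotein, varied in all groups, from 30.1 to 463 CPM, with the highest levels in 5-FU combination tumor 4 (463 CPM) and gemcitabine tumor 4 (355 CPM).

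Among the genes of adhesion, polarity and the cytoskeleton, Itgb4, the beta chain of the hemidesmosome integrin, was at 130, 140, 128, 285 and 116 CPM in the vehicle tumors and at 178, 154, 118, 476 and 292 CPM in the 5-FU combination tumors. In both groups tumor 4 was highest. Llgl2, a polarity protein, reached 307 CPM in 5-FU combination tumor 1, where Itgb4, the next of the 58 genes along the chromosome, had 178 CPM. Evpl, envoplakin of the epithelial cornified envelope, was at 58.3, 57.0, 54.8 and 54.5 CPM in 5-FU combination tumor 4, vehicle tumor 4, 5-FU combination tumor 5 and gemcitabine tumor 4, with a median of 19.9 CPM. In the last stretch, Actg1 had 7376 CPM in 5-FU combination tumor 5, against 2608 to 3990 CPM in the other tumors of that group. Arhgdia had 1161 CPM there against 449 to 558 CPM, and the GTPase Rac3 had 82.7 CPM against 25.4 to 35.7 CPM. Gemcitabine tumor 4 was also the highest of its group for Arhgdia (794 CPM) and Rac3 (39.4 CPM), but for Actg1 (4658 CPM) it was exceeded by gemcitabine tumors 1 and 3 (4727 and 4985 CPM). Cdc42ep4, an effector of Cdc42, had deviations of 1.46, 1.12 and 1.19 in 5-FU combination tumors 1, 4 and 5. Baiap2, which shapes membrane protrusions, had 1.18 in 5-FU combination tumor 5. The tubulin chaperone gene Tbcd, the last of the 58, was highest in vehicle tumor 4 (124 CPM) and next in gemcitabine tumor 4 (95.6 CPM).

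The 7 genes of transcription and chromatin lie mostly in the last stretch, and their median deviation was 1.29 in 5-FU combination tumor 5, 0.65 in gemcitabine tumor 4 and -0.04 in 5-FU combination tumor 4. H3f3b, which encodes histone H3.3, lies in the second stretch and was at 3446 CPM in 5-FU combination tumor 4, 2508 CPM in tumor 5 and 1130 CPM in tumor 1. Sox9, a transcription factor of mammary progenitor cells, showed the opposite order, with 584 CPM in tumor 1, 395 CPM in tumor 5 and 150 CPM in tumor 4, and 201 and 168 CPM in tumors 2 and 3. Its level in the vehicle tumors was 160, 197, 99.6, 202 and 161 CPM. The Polycomb genes Cbx2 and Cbx8 had 26.1 and 54.3 CPM in 5-FU combination tumor 5, where the other 4 tumors of the group had 6.17 to 9.88 CPM and 15.5 to 27.1 CPM. The deacetylase Sirt7 (93.8 CPM), the forkhead factor Foxk2 (136 CPM) and the small Maf protein Mafg (180 CPM) were also highest of the 30 tumors in 5-FU combination tumor 5, and gemcitabine tumor 4 was next for each.

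Of the genes of RNA processing, translation and nuclear transport, those before Itgb4 were highest in 5-FU combination tumor 1. The nucleoporin gene Nup85 had 151 CPM there, Mif4gd, a partner of histone mRNA translation, had 164 CPM against a median of 32.7 CPM, and Tsen54, a subunit of the tRNA splicing endonuclease, had 101 CPM against 25.3 CPM. The exon junction helicase Eif4a3 of the last stretch had 163 CPM in that tumor and 323 CPM in tumor 5 of the group. It also stood at 260 CPM in vehicle tumor 4 and 257 CPM in gemcitabine tumor 4, with a median of 152 CPM. The RNA-binding protein Unk and the microRNA silencing factor Tnrc6c had deviations of 1.295 and 1.02 in 5-FU combination tumor 4. Dus1l, a dihydrouridine synthase, had 0.88 in 5-FU combination tumor 5 and 0.77 in gemcitabine tumor 4.

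Sumo2, the most abundant of the genes of ubiquitin, SUMO and protein turnover, was at 357, 453, 259, 439 and 322 CPM in the vehicle tumors, at 324, 312, 329, 385 and 304 CPM in the 5-FU tumors and at 366, 345, 388, 453 and 309.1 CPM in the gemcitabine tumors. It was at 292, 289, 303, 239 and 363 CPM with KCL-HO-1i, at 775, 301, 288, 572 and 653 CPM with the 5-FU combination and at 330, 291, 354, 292 and 351 CPM with the gemcitabine combination. Its mean was 518 ± 216 CPM (SD, n = 5) with the 5-FU combination and 366 ± 81.3 CPM (SD, n = 5) with vehicle, and tumors 2 and 3 of the 5-FU combination lay within the range of the vehicle tumors. The deubiquitinase Usp36 and the hybrid ubiquitin enzyme Ube2o were highest in 5-FU combination tumor 4 (106 and 90.3 CPM). Gps1, a subunit of the COP9 signalosome, had 201 CPM in 5-FU combination tumor 5 and 178 CPM in gemcitabine tumor 4, with a median of 93.7 CPM. The interferon-inducible ligase Rnf213 was highest in gemcitabine tumor 4 (464 CPM) and vehicle tumor 4 (323 CPM), and 5-FU combination tumor 5 had 234 CPM. The ligase Trim47 was at a deviation of 1.57 in 5-FU combination tumor 5 but at -0.10 in gemcitabine tumor 4. Nploc4, a cofactor of the p97 segregase, had 1.11 and 1.16 in these tumors, and Anapc11, a subunit of the anaphase-promoting complex, had 1.13 and 0.46.

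The genes of the secretory pathway and membrane traffic differed by position in the same way. P4hb, which forms disulfide bonds in the endoplasmic reticulum, had 900 CPM in 5-FU combination tumor 1, 1053, 856 and 1123 CPM in tumors 2 to 4 and 2674 CPM in tumor 5, with 1071, 1124, 1146, 1993 and 950 CPM in the gemcitabine tumors. Srp68, a subunit of the signal recognition particle, had 144, 136, 112, 549 and 316 CPM in the 5-FU combination tumors and 152, 232, 215, 326 and 157 CPM in the vehicle tumors. 5-FU combination tumor 4 was thus the highest for Srp68 and within its group for P4hb. Exoc7 of the exocyst, the lipid-binding protein Sec14l1 and the Arf exchange factor Cyth1 had deviations of 1.16, 1.88 and 1.19 in that tumor, and the Golgi complex gene Cog1, in the first stretch, had 1.26. Chmp6, an ESCRT-III subunit of the last stretch, had 0.06 there and 1.02 in 5-FU combination tumor 5.

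**Figure D4:**
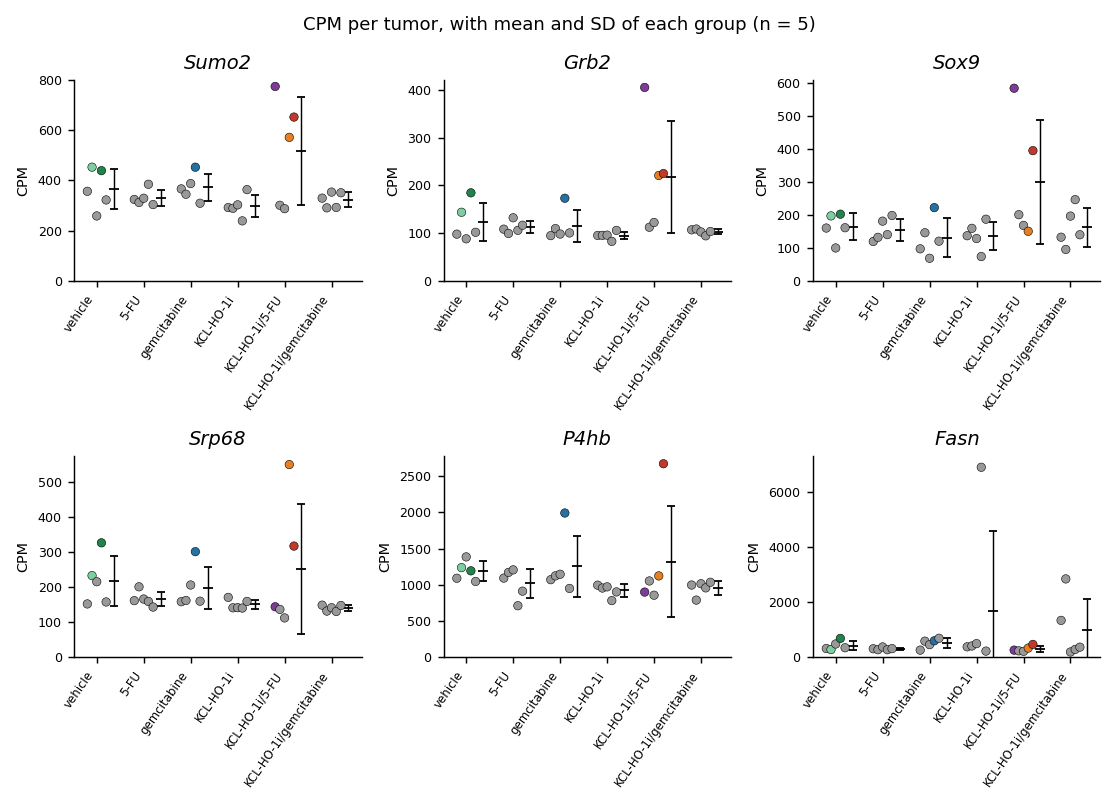
CPM (y axis, from 0) of 6 of the genes in each tumor by group, with colors for the 6 tumors of the running median plot and gray for the others; bars show the mean and SD (n = 5), cut at 0. Grb2, Sumo2 and Sox9 are highest in 5-FU combination tumor 1, Srp68 in tumor 4 and P4hb in tumor 5, and Fasn is highest in KCL-HO-1i tumor 4 at 6907 CPM.

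Among the metabolic and transport genes, Galk1 (galactokinase), Pgs1 (cardiolipin synthesis), Gaa (lysosomal glucosidase), Fdxr (ferredoxin reductase) and the zinc transporter Slc39a11 had deviations of 1.36, 1.26, 0.91, 0.87 and 1.08 in 5-FU combination tumor 5. Of these, Gaa was highest in vehicle tumor 4, and Fdxr and Slc39a11 were highest in 5-FU combination tumor 4. Fasn had 6907 CPM in KCL-HO-1i tumor 4 and 2846 CPM in gemcitabine combination tumor 2, against 463 CPM in 5-FU combination tumor 5. The summed adipocyte markers ran from 18.3 CPM in 5-FU combination tumor 5 to 15231 CPM in gemcitabine combination tumor 2, with 11158 CPM in KCL-HO-1i tumor 4, and their part in the level of Fasn was not tested. Pcyt2, of phosphatidylethanolamine synthesis, was highest in KCL-HO-1i tumor 4 as well (90.5 CPM). The lactate exporter Slc16a3 had 79.1 CPM in vehicle tumor 3 and 59.0 CPM in 5-FU combination tumor 5, with a median of 5.78 CPM, and its deviation of 3.32 was the largest of the 58 genes in the latter tumor. Pycr1, of proline synthesis, was highest in vehicle tumor 3 (67.0 CPM) and gemcitabine tumor 4 (62.9 CPM), and its deviation of 0.21 was the smallest of the 58 genes in 5-FU combination tumor 5.

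Socs3 and Sphk1 were highest in tumors other than their neighbors were. Socs3, a feedback inhibitor of cytokine signaling that is itself induced by cytokines, was highest in 5-FU combination tumor 3 (86.1 CPM) and had deviations of -0.96 and -0.92 in gemcitabine tumor 4 and vehicle tumor 4, where the nearby genes Pgs1 and Usp36 were at 0.62 and 1.09 in the former and at 0.34 and 0.81 in the latter. Sphk1, a sphingosine kinase, was highest in vehicle tumor 2 (51.4 CPM, against 3.17 to 20.8 CPM in the other vehicle tumors). The 3 remaining genes, Nat9, Tmem104 and Narf, had deviations of 0.88, 0.72 and 1.57 in 5-FU combination tumor 5. The pairs Slc39a11 and Cog1, Nat9 and Tmem104, Itgb4 and Galk1, Gps1 and Dus1l, and Slc16a3 and Csnk1d overlap each other on the annotation. Of tested genes not in the list, Mrps7 overlaps Mif4gd, Fam104a overlaps Cog1, and Zfp750 and B3gntl1 overlap Tbcd. Reads within the overlaps may thus be shared by the counting.

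Values outside the region are given for orientation. The listed genes were chosen for being raised in these tumors and their relatives were not, so a listed gene lying above its relative follows from the choice. For this, 32 pairs were formed from 30 of the genes and relatives of the same family, 31 of the relatives on other chromosomes and Grap on chromosome 11 itself. The members had a median deviation of 1.20 and the relatives 0.09 in 5-FU combination tumor 5, and the member was above its relative in 32 of 32 pairs. The corresponding medians were 0.70 and 0.03 in gemcitabine tumor 4 (30 of 32 pairs), 0.42 and -0.09 in vehicle tumor 4 (30 of 32), 0.22 and -0.08 in 5-FU combination tumor 4 (27 of 32), 0.19 and -0.02 in vehicle tumor 2 (28 of 32) and 0.16 and 0.10 in 5-FU combination tumor 1 (21 of 32). For single pairs in 5-FU combination tumor 5, Actg1 was at 1.25 and Actb at -0.02, Sumo2 was at 0.99 with Sumo3 at -0.05, and P4hb was at 1.37 with Pdia3 at 0.28. H3f3b, at 1.35 in 5-FU combination tumor 4, had its relative H3f3a, which encodes the same histone, at -0.56.

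**Figure D5:**
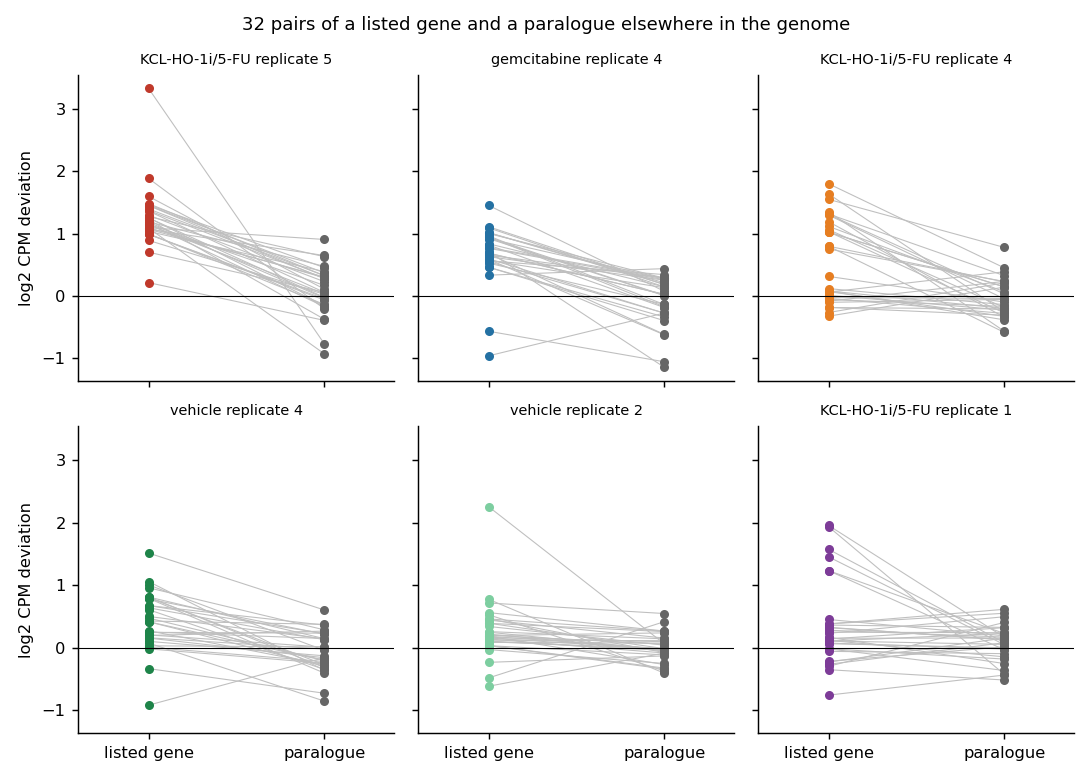
Log2 CPM deviation (y axis) of listed genes (left in each panel) and family relatives elsewhere in the genome (right), joined by a line for each of 32 pairs, in 6 tumors. In 5-FU combination tumor 5 all 32 lines fall from left to right, and in 5-FU combination tumor 1, where the run ends at Galk1, 21 do.

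The treatment groups were also compared, over their 5 tumors each, in edgeR's quasi-likelihood fit across all 13663 genes, the question being which genes each treatment changes. The 58 genes were chosen for high levels in single tumors, and 5-FU combination tumors 1, 4 and 5 hold the highest level of 47 of them, so comparisons with that group use the selecting values again. The counts below are therefore descriptions, printed beside the share of all genes, and are no independent test of the listed genes. At an unadjusted p under 0.05, 0 of the 58 were called between 5-FU and vehicle (3.89% of all genes were) and 1, Anapc11, between gemcitabine and vehicle (3.83%). Between KCL-HO-1i and vehicle 4 were called, Fasn higher and Gaa, Tbcd and Ube2o lower (9.43%), and between the gemcitabine combination and vehicle 7 were, Socs3 higher and 6 lower (19.8%). Between the 5-FU combination and vehicle 22 were called, 21 higher and Pycr1 lower, where 17.6% of all genes were called in either direction and 9.79% higher. Between the 5-FU combination and KCL-HO-1i 41 were called, 40 higher and Fasn lower, where 16.9% of all genes were called and 7.47% higher. These comparisons share the vehicle or 5-FU combination tumors. The lower calls of Gaa, Tbcd and Ube2o between KCL-HO-1i and vehicle depended on vehicle tumor 4. Without it, 1 of the 58 was called in that comparison, 1 higher and 0 lower, where 1211 of 13848 genes were called. The Fasn calls depended on KCL-HO-1i tumor 4, which had 6907 CPM where the rest of its group had 220 to 492 CPM. Without that tumor, 4 of the 58 were called between KCL-HO-1i and vehicle, 0 higher and 4 lower. Of all 13779 genes, 634 were then called in either direction, 415 of them higher. Between the 5-FU combination and KCL-HO-1i 37 of the 58 were then called, 37 higher and 0 lower. Of all 13779 genes, 1665 were called in either direction, 852 of them higher.

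At a Benjamini-Hochberg adjusted p of 0.05, edgeR called 0 of the 58 genes and 0 of all genes in each of the 6 comparisons. When single tumors were left out, edgeR called 0 to 3 of the 58 for the 5-FU combination against vehicle (0 to 186 of all genes) and 0 to 6 against KCL-HO-1i (0 to 15 of all genes), and 0 in the other 4 comparisons (up to 189 of all genes). Against vehicle these were 3 genes without 5-FU combination tumor 4 and 1 without tumor 2 or 3, and against KCL-HO-1i 6 without tumor 3 and 5 without tumor 2. DESeq2 called 6 of the 58 and 408 of 13598 genes between the 5-FU combination and vehicle, and 15 of the 58 and 379 genes between the 5-FU combination and KCL-HO-1i. It called 0 of the 58 in the other 4 comparisons, where it called 119 genes for KCL-HO-1i and 883 for the gemcitabine combination against vehicle.

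The median log2 fold change of the 58 genes was 0.40 for the 5-FU combination against vehicle and 0.72 against KCL-HO-1i. Cdc42ep4 was at 244, 125, 93.9, 193 and 203 CPM in the 5-FU combination tumors and at 82.8, 102, 74.3, 90.8 and 78.5 CPM in the vehicle tumors, a log2 fold change of 1.00 (SE 0.20). Its lowest 5-FU combination tumor lay within the range of the vehicle tumors. Cog1, Grb2 and Smurf2, also of the first stretch, had log2 fold changes of 0.86 (SE 0.19), 0.82 (SE 0.25) and 0.83 (SE 0.25) against vehicle. Without 5-FU combination tumors 4 and 5, which were left out after their values were seen, 12 of the 58 genes were called against vehicle at an unadjusted p under 0.05, 7 higher and 5 lower, where 20.2% of all genes were, and the median log2 fold change was -0.07. At an adjusted p of 0.05 edgeR then called 2 of the 58 and 421 of 14050 genes. Without the same tumors 16 were called against KCL-HO-1i, 14 of them higher, where 14.8% of all genes were, and the median was 0.26. The median difference of the listed genes thus moved with 2 of the 5 tumors.

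Markers of other cell types were measured beside these values. The summed luminal epithelial markers were at 6345 CPM in 5-FU combination tumor 5, 6326 CPM in gemcitabine tumor 4, 5046 CPM in 5-FU combination tumor 4, 5491 CPM in vehicle tumor 4, 5982 CPM in vehicle tumor 2 and 6094 CPM in 5-FU combination tumor 1, within the range of all tumors and with a median of 5751 CPM. In the same order of tumors, the summed basal markers were at 136, 90.4, 220, 113, 195 and 1389 CPM, with a median of 270 CPM over all tumors. The summed adipocyte markers were at 18.3, 20.6, 138, 581, 48.6 and 70.3 CPM, with a median of 126 CPM. Summed fibroblast markers (7 genes) were at 212 CPM in 5-FU combination tumor 5, where they ran from 105 to 13127 CPM over all tumors. The 8 macrophage markers summed to 569 CPM in that tumor, near the median of 573 CPM. The 8 proliferation genes summed to 278, 126, 185, 520 and 300 CPM in 5-FU combination tumors 1 to 5 and to 425 CPM in gemcitabine tumor 4, against a median of 516 CPM. The part of cell composition in the levels of the 58 genes was not tested. The mouse codes of the labels begin with the same number, 65, for 5-FU combination tumors 1 and 5 and for KCL-HO-1i tumor 5, whose median deviation was -0.07. Number 76 was found only in 5-FU tumors 1 to 3 and gemcitabine tumors 1 to 4. Number 74 was found only in 5-FU combination tumors 2 and 4 and 5-FU tumor 5. The numbers were thus unevenly spread over the treatment groups, and their part in the group comparisons was not tested. The labels do not say what the number stands for.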

How the data were processed

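RNA of 30 tumors was sequenced. Per the methods and the submitters' processing notes, the authors checked reads with FastQC (0.11.9), aligned them with STAR (2.7.9a) to mm10 and quantified genes with Salmon (1.9.0) and tximport, and they deposited 1 table of estimated counts per gene. The methods call these values TPM counts, but the totals differ between libraries and 38% of values are not whole, so they were taken to be estimated counts and rounded. The kit kept strand, but the strand setting of the counting is not given in the sources used here. Genes were filtered with filterByExpr (minimum count 10) and scaled by TMM, all 6 groups entered 1 edgeR (4.0.16, R 4.3.3) quasi-likelihood fit, and p-values were adjusted over 13663 genes by the Benjamini-Hochberg method. CPM are counts per 1000000 of the scaled library size, with a prior count of 2 on the log2 scale. DESeq2 (1.42.0) was an alternative. Other calculations used Python (3.11.15). Positions and promoters came from RefSeq, GRCm38.p6, and the exon lengths of the levels per kb came from the GENCODE annotation. The fit was tested on simulated data. The 58 genes, their roles and the other lists were chosen with earlier results of these data known. Of these, 28 genes were named for description whatever their values, with the extremes of level and deviation and the 5 other regional genes of highest mean; the remaining listed genes were added after their values were seen. Same-numbered replicates did not deviate together (mean correlation 0.00284 over 75 pairs), so no pairing was used.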

Additional observations from a re-analysis of the deposited data

Results flagged for a closer look

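In each group of 5 tumors, a value was marked where its gap to the nearest other tumor, divided by the range of the group, passed Dixon's critical value of 0.71. In all, 32 of 174 groups were marked. Chance marks about 1 in 20 groups of genes not chosen for it, but these genes were chosen because single tumors stood apart, so the marks restate that choice and their number is not read against chance. Gemcitabine tumor 4 stood apart for the median deviation of the 58 genes (0.8127) and for Grb2 (173.1 CPM), Smurf2 (211.5 CPM), Rptor (109.3 CPM), Llgl2 (139.7 CPM), Evpl (54.48 CPM), Sirt7 (67.28 CPM), Foxk2 (111.4 CPM), Usp36 (91.65 CPM) and P4hb (1993 CPM). 5-FU combination tumor 5 stood apart for Actg1 (7376 CPM), Arhgdia (1161 CPM), Rac3 (82.68 CPM), Cbx2 (26.07 CPM), Sirt7 (93.8 CPM), Foxk2 (136.4 CPM), Eif4a3 (323.0 CPM), Gps1 (200.7 CPM), P4hb (2674 CPM) and Slc16a3 (59.03 CPM), all of which lie in the last stretch, from Cbx2 on.

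Vehicle tumor 4 was marked for Itgb4 (285.3 CPM) and Eif4a3 (260.0 CPM). Vehicle tumor 3 was marked for Actg1 (4278 CPM) and Slc16a3 (79.06 CPM), both high, and for Rac3 (10.73 CPM), which was low. KCL-HO-1i tumor 4 was marked for Fasn (6907 CPM) and Slc16a3 (32.72 CPM), and KCL-HO-1i tumor 5 for Sphk1 (20.87 CPM). Cbx2 was high in 5-FU tumor 4 (11.65 CPM) and Nup85 was low in 5-FU tumor 5 (47.72 CPM). The gemcitabine combination tumor 4 was low for Arhgdia (435.1 CPM) and Gps1 (60.14 CPM).

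For Smurf2 the difference between groups with and without KCL-HO-1i had opposite signs, with a mean log2 difference of -0.4159 without chemotherapy and 0.9838 with 5-FU. The 5-FU combination tumors ran from 116 to 315 CPM. The interaction with 5-FU in the edgeR quasi-likelihood fit was 1.54 on the log2 scale (adjusted p 0.42), and that with gemcitabine was -0.05. Smurf2 was chosen on these values, so this is a description and the difference was not tested on other samples.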

How the results depend on the processing

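Of the 182 alternative values computed, 152 stayed on the same side of the threshold or within 1.5 times of the reported value and 30 moved. With only the groups compared in the fit, the number of the 58 genes at an unadjusted p under 0.05 became 1 for 5-FU (3.54% of all genes), 2 for gemcitabine (2.45%), 11 for KCL-HO-1i (9.14%), 14 for the 5-FU combination (17.7%) and 16 for the gemcitabine combination (19.1%) against vehicle. DESeq2 gave 1 for 5-FU (4.48%). Without 5-FU combination tumors 4 and 5, chosen after seeing the data, it was 12 against vehicle (20.2%) and 16 against KCL-HO-1i (14.8%). Leaving out each tumor in turn gave 0 to 3 for 5-FU (1.99% to 6.12% of all genes), 0 to 3 for gemcitabine (2.60% to 9.60%), 1 to 7 for KCL-HO-1i (4.60% to 11.4%), 13 to 32 for the 5-FU combination (9.60% to 19.8%) and 2 to 9 for the gemcitabine combination (13.9% to 22.04%) against vehicle, and 28 to 42 for the 5-FU combination against KCL-HO-1i (12.1% to 16.9%). For the 5-FU combination against vehicle the count was 13 without vehicle tumor 3, 14 without vehicle tumor 5, 15 without 5-FU combination tumor 5 and 32 without vehicle tumor 4. For the gemcitabine combination it was 2 without vehicle tumor 4, 3 without gemcitabine combination tumor 2 and 4 without its tumor 3. For KCL-HO-1i it was 1 without vehicle tumor 4 and 7 without vehicle tumor 1 or 5. For gemcitabine it was 0 without vehicle tumor 3 or gemcitabine tumor 3, 2 without gemcitabine tumor 1 or 5 and 3 without gemcitabine tumor 4. For 5-FU it was 3 without vehicle tumor 1 and 1 without vehicle tumor 4 or 5-FU tumor 4. With a replicate block the counts were 0 for 5-FU (3.23% of all genes), 1 for gemcitabine (3.72%), 3 for KCL-HO-1i (7.58%), 20 for the 5-FU combination (15.1%) and 7 for the gemcitabine combination (17.7%) against vehicle and 38 for the 5-FU combination against KCL-HO-1i (14.9%), and the labels do not say that the replicate numbers pair the mice.

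In vehicle tumor 2, 6 genes were raised against the mean of the other 29 tumors (5.48% of all genes), 6 against the median of the vehicle tumors (8.39%) and 22 at a threshold of 0.3 (11.3%), in place of 13. In 5-FU combination tumor 1, 25 were raised at a threshold of 0.3 (17.4% of all genes) in place of 15. With a running median over 31 genes the run of gemcitabine tumor 4 grew from 70 to 138 genes, and that of vehicle tumor 2 went from 4 to 0. The causes were not tested. The lowest count of any of the 58 genes in a library was 14, so counting error limits the low values of Slc16a3, Cbx2 and Sphk1.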
